A study of Mus musculus with 12 samples.

Results

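The receptors for glutamate, GABA and glycine are encoded by 52 genes in these data, out of 53932 gene identifiers. They were taken by symbol, as every row named for an AMPA (Gria), kainate (Grik), delta (Grid), NMDA (Grin) or metabotropic (Grm) glutamate receptor gene, a GABA-A (Gabr) or GABA-B (Gabbr) receptor gene, or a glycine receptor gene (Glra, Glrb) in all 12 libraries. The libraries were made from total RNA of cultured C57BL/6 mouse cells, 3 in each of 4 groups. NSC are neural stem cells from cortex at E14.5, kept as neurospheres in EGF and FGF2 (20 ng/mL each). Astrocytes were kept in medium with 10% serum and carry the labels cortex and E14.5, but the protocol allows either sorted postnatal cortex or differentiated neurospheres as their origin and does not say which was used. MIM-Astrocytes are such cells moved to MIM, a serum-free medium with FGF2 at 20 ng/mL and up to 6 metabolites (cysteine, glycine, methionine, putrescine, S-adenosylmethionine and threonine) for up to 5 days. The mixture and day of these libraries are not given. Glioblastoma is a tumour culture labelled cerebella and E18.5, and nothing further on how it was made is given, so tumour, region and age cannot be told apart when it is compared with the others. The series title asks how one-carbon metabolites bear on cellular identity. Comparing MIM-Astrocytes with Astrocytes shows the receptor genes of astrocytes with and without the medium, and the other comparisons place both beside stem cells and tumour cells. The change of medium takes in serum, FGF2, metabolites and days in MIM, and the parts of these cannot be told apart.

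Glutamate acts on ion channels assembled from subunits of the AMPA, kainate or NMDA type and on metabotropic receptors that signal through G proteins. GABA opens chloride channels of the GABA-A type, built from alpha, beta and a further kind of subunit, and acts through the GABA-B pair of G protein-coupled subunits, while glycine opens chloride channels of alpha and beta subunits. Astrocytes and neural progenitors are known to express some of these receptors, which let them sense transmitter released by neurons.

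Levels are given in FPKM, a read density corrected for how long a transcript is and how many fragments a library has, so that genes of different length can be set side by side. A mean of at least 1 FPKM in at least 1 group was reached by 29 of the 52 genes. By group, 22 genes reached that mean in Astrocytes, 21 in NSC, and 19 each in MIM-Astrocytes and Glioblastoma, and 13 did in all 4 groups. At 10 FPKM the order differed, with 5 genes in Astrocytes, 11 in MIM-Astrocytes and 7 each in NSC and Glioblastoma. Summed over the 52 genes, the level was 202.7 ± 6.75 FPKM in Astrocytes, 342.6 ± 1.61 in MIM-Astrocytes, 327.1 ± 7.74 in NSC, with 275.0 ± 1.76 in Glioblastoma (mean ± SD, n = 3 here and below). Sums here and below are of FPKM as deposited, and the order of groups in them can depend on scaling. The FPKM of all genes summed to 514728 to 623809 in the Astrocytes libraries and 812104 to 979106 in the Glioblastoma libraries. Of the 29 genes, Astrocytes held the highest mean of 6 and the lowest mean of 14, while NSC held the highest of 8 and the lowest of 1. Glioblastoma had the highest mean of 9 and the lowest of 10, and MIM-Astrocytes the highest of 6 and the lowest of 4. These ranks too are of FPKM as deposited and can depend on scaling. In bulk RNA, fewer cells of a type and less RNA per cell cannot be told apart.

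**Figure D1:**
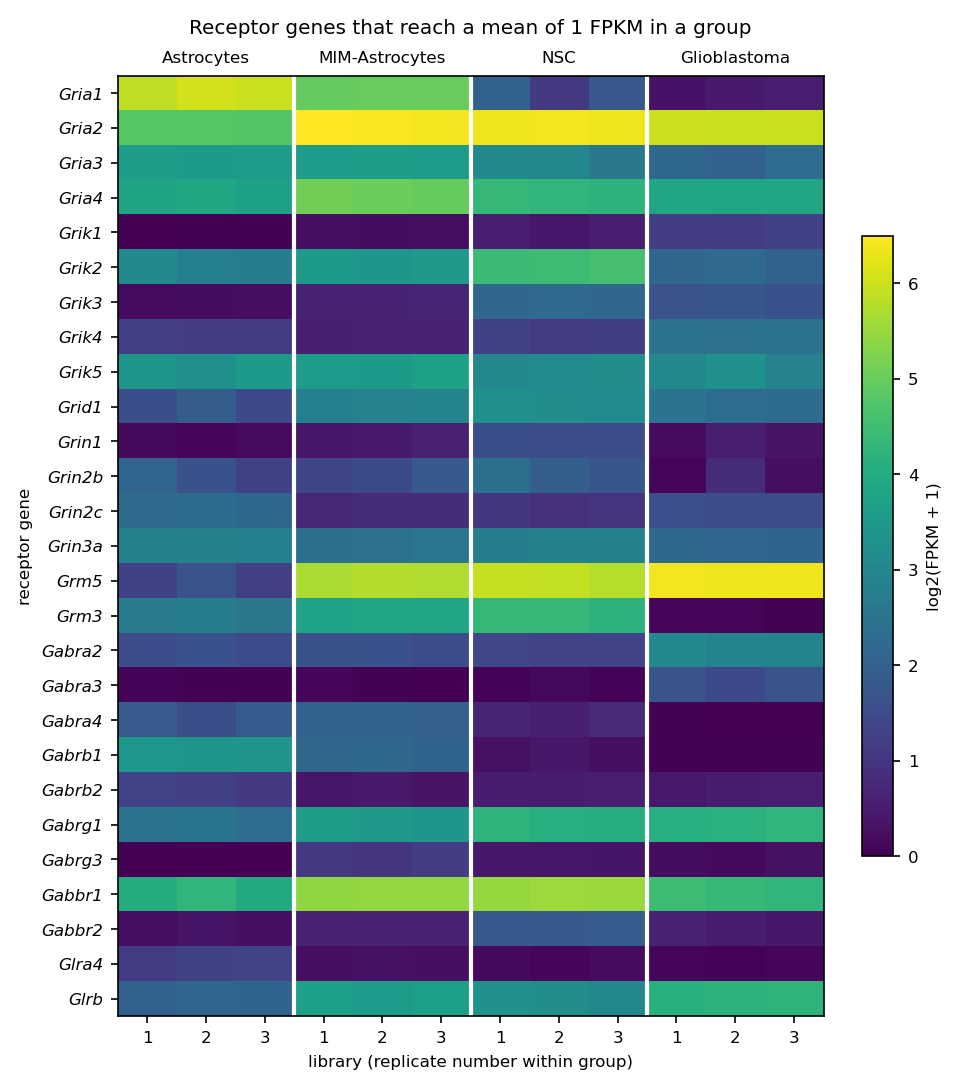
Levels of 27 receptor genes that reach a mean of 1 FPKM in at least 1 group, as log2(FPKM + 1) by colour, with 1 row per gene and 1 column per library. Gria1 is bright in Astrocytes and dark in Glioblastoma, Grm5 is dark in Astrocytes and bright in the other 3 groups, and Grm3 is dark in Glioblastoma alone.

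Only genes with 1 FPKM or more in at least 3 libraries entered the test, and 28 of the 52 receptor genes had that. Differences are of log2(FPKM + 1), which understates those of weakly expressed genes, and a gene counts as called where its adjusted p over all 16982 genes tested lies under 0.05. In MIM-Astrocytes against Astrocytes 23 of the 28 were called, 15 higher and 8 lower. Among all genes tested 61.4% were called, 34.8% higher and 26.6% lower. In NSC against Astrocytes 23 were called, 14 higher and 9 lower, against 71.2% of all genes, 37.7% higher and 33.4% lower. In Glioblastoma against Astrocytes 26 were called, 14 higher and 12 lower, against 78.3%, 47% higher and 31.3% lower. Among the 28 tested receptor genes the libraries of the groups did not overlap for 24 in MIM-Astrocytes against Astrocytes (64.5% of all genes tested), 24 in NSC against Astrocytes (73% of all genes) and 26 in Glioblastoma against Astrocytes (79.9%). Of the 28, 6 reached 1 FPKM in the libraries of 1 group only (Gabra3 and Grik1 in Glioblastoma, Gabrb2 and Glra4 in Astrocytes, Gabbr2 and Grin1 in NSC). They entered the test through that group and had to differ from it, so their differences from it are given as values without a test, and the counts here, which include them, are a description. Since most genes of these cultures passed the test, a call by itself says little, and sizes and directions are given below.

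The 3 comparisons without Astrocytes gave more lower than higher calls among the receptor genes, with each scaling tried. The calls, medians and non-overlap counts here include the 6 genes that entered the test through 1 group only, and are a description. Gabbr2 and Grin1 had to be lower against NSC, and Gabra3 and Grik1 higher in Glioblastoma. In MIM-Astrocytes against NSC 21 were called, 8 higher and 13 lower, against 55.9% of all genes, 31% higher and 24.9% lower. In Glioblastoma against NSC 24 were called, 9 higher and 15 lower, against 69.9%, 44.8% higher and 25.1% lower. In Glioblastoma against MIM-Astrocytes 25 were called, 11 higher and 14 lower, against 69.8%, 41.5% higher and 28.3% lower. The median difference of the 28 tested genes on the log2(FPKM + 1) scale was 0.24 in MIM-Astrocytes against Astrocytes (0.09 over all genes tested), 0.41 in NSC against Astrocytes (0.07) and 0.22 in Glioblastoma against Astrocytes (0.23). It was -0.16 in MIM-Astrocytes against NSC (0.02), -0.33 in Glioblastoma against NSC (0.19) and -0.15 in Glioblastoma against MIM-Astrocytes (0.13). Groups did not overlap for 25 receptor genes in MIM-Astrocytes against NSC (62.3% of all genes), 24 in Glioblastoma against NSC (75%) and 25 in Glioblastoma against MIM-Astrocytes (74.5%). Comparisons that share a group share its libraries and are not independent of each other. The share of higher calls among all genes depends on how libraries are scaled: it was 56.7%, 53.0% and 60.0% in the 3 comparisons with Astrocytes, and 33.6%, 30.6% and 39.6% when libraries were brought to a common total. With median-of-ratios scaling it was 49.2% in place of 60.0% in Glioblastoma against Astrocytes and 51.6% in place of 64.1% in Glioblastoma against NSC. With a common total it was 67.8% in place of 55.4% in MIM-Astrocytes against NSC and 47.1% in place of 59.5% in Glioblastoma against MIM-Astrocytes.

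AMPA receptors carry most fast excitatory signalling, and whether they pass calcium depends on the Gria2 subunit. The codon that matters lies in the pore loop: the enzyme encoded by Adarb1 edits it in Gria2 transcripts so that a glutamine codon is read as arginine, which blocks calcium. The stretch around it is shown because the 4 genes differ so much in level below. It is given 5' to 3' on the coding strand from GENCODE M21 transcripts (GRCm38), with the unedited codon in capitals. It lies at chr11:57243058-57243119 in exon 11 of Gria1 (plus strand), chr3:80706888-80706949 in exon 11 of Gria2 (minus strand), chrX:41610229-41610290 in exon 11 of Gria3 (plus strand), chr9:4464114-4464175 in exon 12 of Gria4 (minus strand) and chr10:49244325-49244367 in exon 12 of the kainate receptor gene Grik2 (minus strand).
Gria1: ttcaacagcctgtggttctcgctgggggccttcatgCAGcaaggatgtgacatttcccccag
Gria2: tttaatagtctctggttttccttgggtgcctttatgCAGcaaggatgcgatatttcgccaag
Gria3: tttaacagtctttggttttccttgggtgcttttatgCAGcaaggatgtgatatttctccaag
Gria4: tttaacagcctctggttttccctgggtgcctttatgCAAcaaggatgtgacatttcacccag
Grik2: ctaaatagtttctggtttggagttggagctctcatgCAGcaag
Over 62 bases Gria3 had the same base as Gria2 at 57 positions, Gria4 at 54 and Gria1 at 49, and over its 43 bases Grik2 did at 31. The genomic codon is CAG in Gria1, Gria2, Gria3 and Grik2 and CAA in Gria4. Expression values do not show how many transcripts were edited.

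Gria1 (chr11:57011387-57330244, plus strand) was the highest of the AMPA genes in Astrocytes and the lowest in Glioblastoma. Its libraries read 57.8, 65.6 and 61.6 FPKM in Astrocytes, 29.5, 30.6 and 31.0 in MIM-Astrocytes, 3.09, 1.17 and 2.38 in NSC, with 0.248, 0.392 and 0.472 in Glioblastoma. The 4 groups did not overlap and fell in that order. Relative to Astrocytes, Gria1 was lower by a log2 difference of -0.997 in MIM-Astrocytes (SE 0.19, adjusted p = 0.000892), -4.33 in NSC (adjusted p = 8.49e-09) and -5.52 in Glioblastoma (adjusted p = 8.41e-10). It was also lower in Glioblastoma than in NSC (-1.18, SE 0.19, adjusted p = 0.000211), although the interval deposited with the value reaches 0 in all 3 Glioblastoma libraries.

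Gria2 (chr3:80681450-80802835, minus strand), the subunit that sets calcium passage, moved the other way. It read 26.4, 26.6 and 26.2 FPKM in Astrocytes, 89.5, 87.3 and 82.3 in MIM-Astrocytes, 80.1, 83.3 and 80.0 in NSC, with 62.7, 61.9 and 61.9 in Glioblastoma. All Astrocytes libraries lay below all others, and MIM-Astrocytes and NSC overlapped. Its mean was 3.27 times higher in MIM-Astrocytes than in Astrocytes (log2 difference 1.67, SE 0.04, adjusted p = 3.66e-10), 3.08 times higher in NSC (1.58, adjusted p = 3.56e-10) and 2.36 times higher in Glioblastoma (1.21, adjusted p = 1.63e-09). MIM-Astrocytes and NSC were not called different (0.09, SE 0.04, adjusted p = 0.116).

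Gria4 (chr9:4417896-4796234, minus strand), another channel subunit, peaked in MIM-Astrocytes. It read 12.8, 13.5 and 12.1 FPKM in Astrocytes, 32.8, 31.7 and 30.0 in MIM-Astrocytes, 19.0, 18.3 and 17.5 in NSC, with 13.4, 13.3 and 13.02 in Glioblastoma. MIM-Astrocytes stood above every other library, and Glioblastoma fell within the range of Astrocytes. The rise in MIM-Astrocytes over Astrocytes was 2.46 times (log2 difference 1.24, SE 0.05, adjusted p = 1.4e-08), and MIM-Astrocytes also exceeded NSC (0.76, adjusted p = 1.35e-06). Glioblastoma against Astrocytes was not called (0.05, adjusted p = 0.416), but was called lower with both other scalings (-0.23, adjusted p = 0.0012 with median-of-ratios scaling, and -0.45, adjusted p = 0.00986 with a common total). The call of NSC over Astrocytes (0.48, adjusted p = 1.65e-05) was lost with a common total (0.07, adjusted p = 0.649). Gria3 (chrX:41400854-41678601, plus strand) was at 10.99 ± 0.272 FPKM in Astrocytes and 11.2 ± 0.117 in MIM-Astrocytes, which overlapped and were not called different (0.03, SE 0.12, adjusted p = 0.849). It was at 6.52 ± 1.30 FPKM in NSC, with 3.53 ± 0.466 in Glioblastoma, both lower than in Astrocytes (-0.69, adjusted p = 0.000373, and -1.41, adjusted p = 1.07e-06).

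The AMPA genes made up different shares of their sum in the 4 groups. Summed, they stood at 111.8 ± 4.16 FPKM in Astrocytes, 159.5 ± 4.44 in MIM-Astrocytes, 108.1 ± 2.76 in NSC, with 79.3 ± 0.589 in Glioblastoma. Gria1 held, of the AMPA total, 55.1 ± 1.51% in Astrocytes, 19.1 ± 0.984% in MIM-Astrocytes, 2.05 ± 0.896% in NSC, with 0.468 ± 0.145% in Glioblastoma. Gria2 made up 23.6 ± 0.780%, 54.1 ± 0.816%, 75.1 ± 1.76% and 78.4 ± 0.385% in the same order. For both genes the shares of Astrocytes overlapped with those of no other group. A share within a library does not depend on how libraries are scaled to each other.

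**Figure D2:**
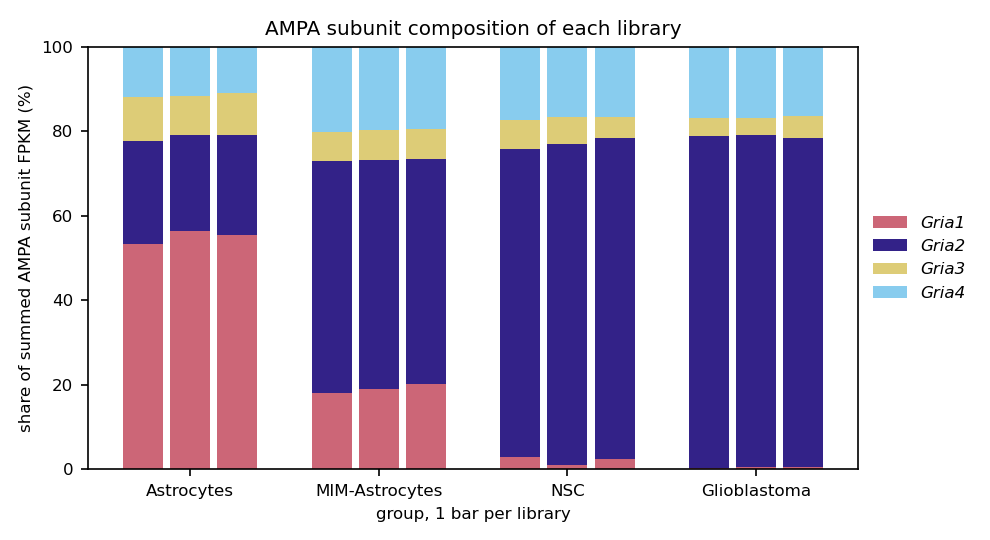
Share of each AMPA receptor gene in the summed FPKM of Gria1 to Gria4 (percent, from 0 to 100), with 1 stacked bar per library. Gria1 takes the largest part of the 3 Astrocytes bars and Gria2 the largest part of the other 9.

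Adarb1, which encodes the enzyme that edits the Gria2 pore codon, was looked up after the AMPA values were seen. It was at 3.92 ± 0.247 FPKM in Astrocytes, 3.31 ± 0.0562 in MIM-Astrocytes, 4.07 ± 0.219 in NSC, with 4.91 ± 0.167 in Glioblastoma. It was called lower in MIM-Astrocytes than in Astrocytes by a log2 difference of -0.19 (SE 0.05, adjusted p = 0.00986). Of the 5 listed genes of receptor RNA editing and splicing, Adarb2, a relative of Adarb1 not known to edit, spanned the widest range: 0.0448 ± 0.00954 FPKM in Astrocytes, 2.88 ± 0.0625 in MIM-Astrocytes, 8.41 ± 0.0844 in NSC, with 0.0108 ± 0.00936 in Glioblastoma. Nova1, a neuronal splicing regulator, was lowest in Astrocytes (4.65 ± 0.232 FPKM) and highest in NSC (28.7 ± 1.103). Adar, the general editing enzyme, stayed between 9.70 and 14.7 FPKM as group means.

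**Figure D3:**
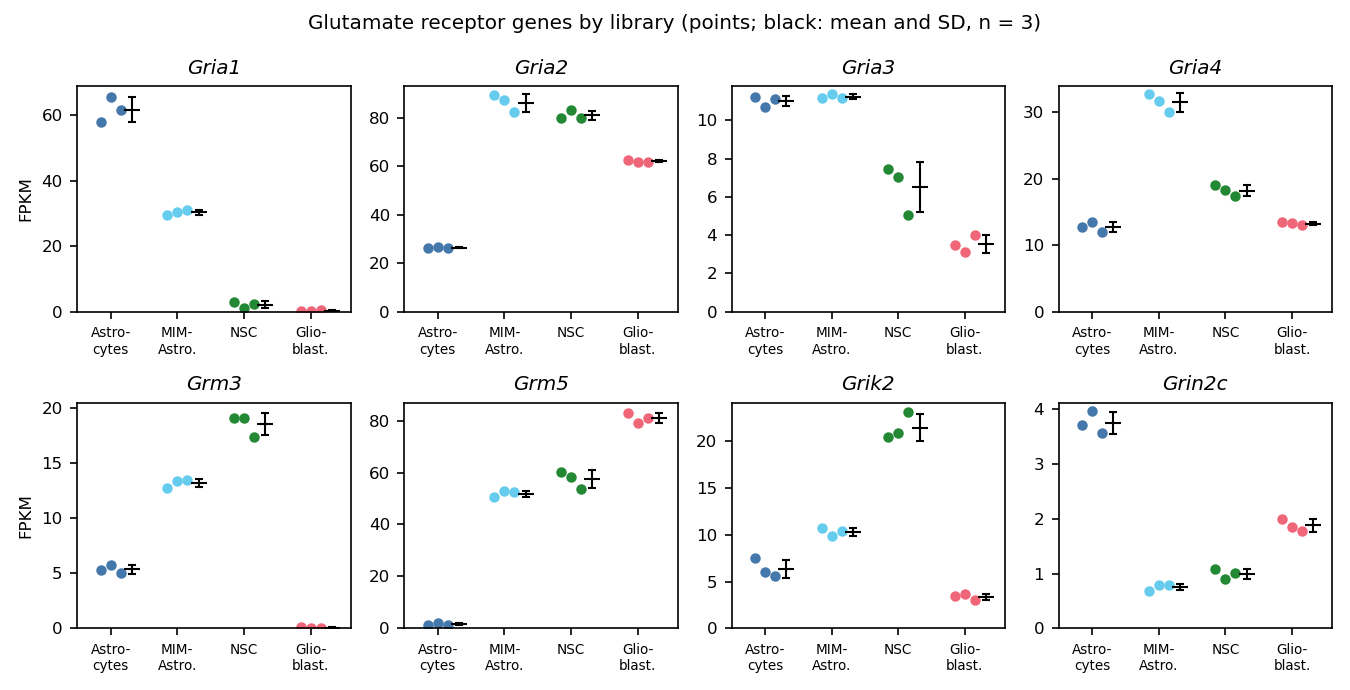
FPKM of glutamate receptor genes in each library (coloured points, 3 per group), with the mean and SD of the group in black and 1 panel per gene, each with its own linear axis from 0. The Gria1 points fall from Astrocytes to Glioblastoma, and the Grm5 points of Astrocytes lie below 3 FPKM while those of the other groups lie above 50.

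Kainate receptors are built from a core of Grik1 to Grik3 with the high-affinity subunits Grik4 and Grik5. Grik2 (chr10:49094833-49788766, minus strand), whose pore codon is shown above, was the main core gene. It read 7.48, 6.02 and 5.59 FPKM in Astrocytes, 10.7, 9.85 and 10.4 in MIM-Astrocytes, 20.4, 20.9 and 23.2 in NSC, with 3.45, 3.68 and 3.02 in Glioblastoma. No 2 groups overlapped, with NSC highest and Glioblastoma lowest. Grik2 was higher in MIM-Astrocytes (0.63, SE 0.10, adjusted p = 0.000232) and NSC (1.62, adjusted p = 1.12e-07) and lower in Glioblastoma (-0.74, adjusted p = 3.87e-05) than in Astrocytes. The first of these calls was lost with a common total (0.36, adjusted p = 0.0626).

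The other core genes were weak outside NSC and Glioblastoma. Grik3 (chr4:125490700-125714173, plus strand) rose from 0.163 ± 0.0277 FPKM in Astrocytes to 0.548 ± 0.0296 in MIM-Astrocytes, 2.21 ± 0.131 in Glioblastoma and 3.50 ± 0.174 in NSC, with all 6 differences called. Grik1 (chr16:87895900-88290265, minus strand) was at 0.0194 ± 0.0169 FPKM in Astrocytes, 0.172 ± 0.00864 in MIM-Astrocytes, 0.412 ± 0.0885 in NSC, with 1.29 ± 0.105 in Glioblastoma. It was the Glioblastoma value of Grik1 that alone reached 1 FPKM, and its call in MIM-Astrocytes over Astrocytes (0.20, adjusted p = 0.0158) was lost without Astrocytes replicate 1 (adjusted p = 0.0508). Grik4 (chr9:42518135-42944493, minus strand) was at 4.53 ± 0.0178 FPKM in Glioblastoma, 1.26 ± 0.0788 in Astrocytes, 1.32 ± 0.0843 in NSC and 0.538 ± 0.0514 in MIM-Astrocytes. Grik4 was higher in Glioblastoma than in Astrocytes (1.29, SE 0.05, adjusted p = 3.05e-09) and lower in MIM-Astrocytes (-0.56, adjusted p = 4.95e-06), and Astrocytes and NSC overlapped. With a common total Grik4 was called lower in NSC than in Astrocytes (-0.22, adjusted p = 0.0376).

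Grik5 (chr7:25009849-25072346, minus strand) was the flattest of the kainate genes, at 9.65 ± 1.06 FPKM in Astrocytes, 11.3 ± 0.777 in MIM-Astrocytes, 7.74 ± 0.628 in NSC, with 7.45 ± 1.21 in Glioblastoma. It was called lower in NSC (-0.28, SE 0.11, adjusted p = 0.0405) and Glioblastoma (-0.34, adjusted p = 0.0167) than in Astrocytes. Both calls were borderline. Without NSC replicate 1, NSC replicate 2, Astrocytes replicate 1 or Astrocytes replicate 3 the first had adjusted p = 0.131, 0.0740, 0.0945 and 0.135. It was also lost with no filter (adjusted p = 0.0676) and with a replicate block (adjusted p = 0.0642). The second had adjusted p = 0.0693 without Glioblastoma replicate 3, 0.0646 without Astrocytes replicate 3 and 0.0519 when only the 6 libraries of the comparison were fitted. Within the summed kainate level Grik2 held 62.3 ± 0.867% in NSC, with 17.9 ± 0.60% in Glioblastoma, where Grik4 held 24.1 ± 2.04% and Grik5 39.3 ± 3.14%. In Astrocytes the largest share was that of Grik5, 55.3 ± 4.38%.

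Grid1, a delta gene, encodes a synapse-organising relative of the ionotropic receptors. Grid1 (chr14:34820108-35583379, plus strand) peaked in NSC at 8.20 ± 0.323 FPKM, with 6.24 ± 0.275 in MIM-Astrocytes, 4.16 ± 0.357 in Glioblastoma and 2.14 ± 0.570 in Astrocytes. It was higher in MIM-Astrocytes than in Astrocytes (1.22, SE 0.11, adjusted p = 4.34e-06), and lower than in NSC (-0.35, adjusted p = 0.0217). That last call was lost without NSC replicate 1 (adjusted p = 0.0661), without MIM-Astrocytes replicate 1 (adjusted p = 0.0653) and with a common total (adjusted p = 0.210). With a common total the call of Grid1 in Glioblastoma over Astrocytes (0.73, adjusted p = 0.000124) was lost too (0.33, adjusted p = 0.0578).

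NMDA receptors need the Grin1 subunit, and Grin1 (chr2:25291181-25319187, minus strand) was weak in every group. It was at 0.108 ± 0.0365 FPKM in Astrocytes, 0.395 ± 0.104 in MIM-Astrocytes, 1.89 ± 0.0484 in NSC, with 0.289 ± 0.158 in Glioblastoma. NSC was above all the others (1.38 against Astrocytes), and MIM-Astrocytes was called above Astrocytes (0.33, adjusted p = 0.00857). Of the exon bases of Grin1, 13.5% lie under the opposite-strand gene Grin1os, and the strandedness of the libraries is not given, so signal of the 2 cannot be separated here. Glioblastoma against Astrocytes was not called (0.21, adjusted p = 0.0513), but was with pseudocounts of 0.1 (adjusted p = 0.0240) and 0.5 (adjusted p = 0.0402) and without Glioblastoma replicate 1 (adjusted p = 0.00936). Glioblastoma against MIM-Astrocytes (-0.12, adjusted p = 0.256) was called without Glioblastoma replicate 2 (adjusted p = 0.0420).

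The partner subunits Grin3a and Grin2c stood above Grin1 in Astrocytes, MIM-Astrocytes and Glioblastoma. Grin3a (chr4:49661611-49845744, minus strand), a glycine-binding subunit, was the highest of the 7 NMDA genes in all 4 groups, at 6.13 ± 0.160 FPKM in Astrocytes, 5.97 ± 0.216 in NSC, 4.56 ± 0.269 in MIM-Astrocytes and 3.38 ± 0.145 in Glioblastoma. It was lower in MIM-Astrocytes (-0.36, SE 0.05, adjusted p = 0.000138) and Glioblastoma (-0.70, adjusted p = 3.64e-07) than in Astrocytes. With a common total its call in MIM-Astrocytes against NSC (-0.33, adjusted p = 0.000338) was lost (adjusted p = 0.135), and NSC against Astrocytes (-0.03, adjusted p = 0.589) became a call (-0.41, adjusted p = 0.00770). Grin2c (chr11:115249169-115267243, minus strand), a glutamate-binding subunit known from cerebellum and astrocytes, was at 3.74 ± 0.200 FPKM in Astrocytes, 1.88 ± 0.113 in Glioblastoma, 0.994 ± 0.0961 in NSC and 0.753 ± 0.0595 in MIM-Astrocytes. The groups did not overlap, and Grin2c was lower in MIM-Astrocytes than in Astrocytes by -1.44 (SE 0.06, adjusted p = 8.75e-09). Its smaller difference from NSC (-0.19, adjusted p = 0.0215) was lost with a common total (adjusted p = 0.314), with no filter (adjusted p = 0.0551) and without NSC replicate 1 or 3 or MIM-Astrocytes replicate 1 (adjusted p = 0.0798, 0.0535 and 0.0713).

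Grin2b (chr6:135713233-136173511, minus strand), the glutamate-binding subunit of the embryonic brain, varied most between libraries of a group. It read 3.32, 2.11 and 1.43 FPKM in Astrocytes, 1.58, 1.76 and 2.56 in MIM-Astrocytes, 4.24, 2.90 and 2.34 in NSC, with 0.0693, 0.816 and 0.187 in Glioblastoma. The first 3 groups overlapped and were not called different, while all Glioblastoma libraries lay lower. Glioblastoma was called lower than Astrocytes (-1.27, SE 0.26, adjusted p = 0.00121) and NSC (-1.63, adjusted p = 0.000279), with intervals that reach 0 in all 3 of its libraries. The NMDA genes summed to 12.7 ± 1.18 FPKM in Astrocytes, 8.15 ± 1.07 in MIM-Astrocytes, 13.1 ± 0.894 in NSC, with 6.77 ± 0.530 in Glioblastoma.

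Of the 8 metabotropic glutamate receptor genes, Grm5 and Grm3 alone reached a group mean of 1 FPKM. Grm5 (chr7:87584168-88134907, plus strand), a group I receptor that raises calcium in immature astrocytes and progenitors, read 1.42, 2.16 and 1.33 FPKM in Astrocytes, 50.4, 52.7 and 52.3 in MIM-Astrocytes, 60.3, 58.4 and 53.6 in NSC, with 82.9, 79.2 and 81.0 in Glioblastoma. Astrocytes lay far below the rest. The mean in MIM-Astrocytes was 31.7 times that in Astrocytes (log2 difference 4.34, SE 0.10, adjusted p = 1.6e-10), and the largest of the 28 differences in that comparison. Its libraries were all below those of NSC, but this was not called (-0.14, adjusted p = 0.257). Glioblastoma was above NSC (0.49, SE 0.10, adjusted p = 0.00138) and MIM-Astrocytes (0.63, adjusted p = 0.000242).

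Grm3 (chr5:9485541-9725170, minus strand), a group II receptor that lowers cyclic AMP and is known from astrocytes, followed Grm5 in the first 3 groups and parted from it in the tumour culture. It read 5.26, 5.73 and 5.003 FPKM in Astrocytes, 12.7, 13.3 and 13.4 in MIM-Astrocytes, 19.1, 19.0 and 17.3 in NSC, with 0.0846, 0.0733 and 0.0329 in Glioblastoma. No groups overlapped, and every Glioblastoma library was below 0.1 FPKM. Grm3 was higher in MIM-Astrocytes (1.16, SE 0.06, adjusted p = 3.71e-08) and NSC (1.62, adjusted p = 2.02e-09) and lower in Glioblastoma (-2.57, adjusted p = 4.45e-11) than in Astrocytes. The difference of Glioblastoma from NSC, -4.19 (SE 0.06, adjusted p = 6.44e-12), was the largest of the 28 in that comparison. Grm5 made up 98.8 ± 0.0815% of the summed metabotropic level in Glioblastoma, 74.4 ± 0.438% in NSC, 78.7 ± 0.323% in MIM-Astrocytes and 19.5 ± 3.46% in Astrocytes, where Grm3 held 64.3 ± 1.91%. The others, among them Grm2, Grm4, Grm6, Grm7 and Grm8, did not reach a mean of 1 FPKM in any group, with Grm4 at 1.20 FPKM in its highest library.

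GABA-A receptors need alpha and beta subunits, and most also hold a gamma subunit. Their genes lie in clusters, and 4 of them share chr5:70751047-72149037 in the order Gabrg1, Gabra2, Gabra4 and Gabrb1. Gabrg1, Gabra2 and Gabra4 are on the minus strand and Gabrb1 on the plus strand. These neighbours did not share a pattern across the 4 groups. Gabra4 (chr5:71569749-71658308) and Gabrb1 (chr5:71658113-72149037) start head to head, their annotated bodies overlapping by 196 bases. The windows from 250 bases before to 50 after their RefSeq starts (GRCm38.p6) are printed because the 2 genes fell in the same 2 groups while parting between Astrocytes and MIM-Astrocytes. The Gabra4 window is chr5:71658259-71658558 (minus strand) and the Gabrb1 window chr5:71657671-71657970 (plus strand, the first of 2 starts in the table), each written 5' to 3' on the strand of its gene. Capitals mark matches, on either strand, to the motif known as a GC box (GGGCGG) or to CCAAT.
Gabra4: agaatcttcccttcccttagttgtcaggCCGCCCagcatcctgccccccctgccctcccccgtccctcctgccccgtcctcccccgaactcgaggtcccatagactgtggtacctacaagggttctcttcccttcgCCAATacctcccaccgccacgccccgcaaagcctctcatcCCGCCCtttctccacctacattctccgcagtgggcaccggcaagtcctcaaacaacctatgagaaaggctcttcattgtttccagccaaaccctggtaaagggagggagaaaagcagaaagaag
Gabrb1: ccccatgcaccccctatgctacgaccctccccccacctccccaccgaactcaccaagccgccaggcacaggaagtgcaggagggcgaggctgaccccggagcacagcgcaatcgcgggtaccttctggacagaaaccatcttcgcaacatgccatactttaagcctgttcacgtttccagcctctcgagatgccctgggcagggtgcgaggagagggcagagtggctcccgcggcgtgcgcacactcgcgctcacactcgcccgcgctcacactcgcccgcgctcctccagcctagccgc
The Gabra4 window holds 2 GC boxes and 1 match to CCAAT, and the Gabrb1 window holds neither. The TATA box (TATAAA), the cyclic AMP response element (TGACGTCA), the AP-1 site (TGANTCA) and the E-box (CAGCTG), searched on both strands, are in neither window. Among all 32851 promoters of the same length, 35.7% hold GGGCGG and 37.4% hold CCAAT.

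Gabrb1 encodes a beta subunit and was highest in Astrocytes. It read 10.1, 9.77 and 9.44 FPKM in Astrocytes, 3.40, 3.57 and 3.25 in MIM-Astrocytes, 0.231, 0.335 and 0.195 in NSC, with 0.0324, 0.0278 and 0.0249 in Glioblastoma. The groups fell in that order without overlap, and intervals reach 0 in the 3 Glioblastoma libraries. Against Astrocytes the log2 difference was -1.29 in MIM-Astrocytes (SE 0.06, adjusted p = 1.27e-08), -3.10 in NSC (adjusted p = 2.08e-11) and -3.39 in Glioblastoma (adjusted p = 6.26e-12). Gabra4, an alpha subunit of receptors outside synapses, read 2.63, 1.97 and 2.72 FPKM in Astrocytes, 3.08, 3.16 and 3.02 in MIM-Astrocytes, 0.6001, 0.478 and 0.717 in NSC, with 0.0250, 0.00534 and 0.0120 in Glioblastoma. MIM-Astrocytes was on top, by a small step, and Glioblastoma lowest. The step over Astrocytes was called (0.26, SE 0.09, adjusted p = 0.0267) but was lost under 9 of the alternatives, among them both other scalings (adjusted p = 0.166 and 0.871), and without Astrocytes replicate 2 (adjusted p = 0.0743) or any 1 of the MIM-Astrocytes libraries (adjusted p = 0.0509 to 0.0713). Gabra4 was lower in NSC (-1.1001, adjusted p = 1.13e-06) and Glioblastoma (-1.75, adjusted p = 1.86e-08) than in Astrocytes. The 2 genes share 46 exon bases on opposite strands.

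Gabrg1 (chr5:70751047-70842617), a gamma subunit found in glia, showed the reverse order. It read 4.53, 4.75 and 4.01 FPKM in Astrocytes, 11.5, 10.3 and 9.86 in MIM-Astrocytes, 17.6, 16.2 and 15.5 in NSC, with 16.1, 16.7 and 18.47 in Glioblastoma. MIM-Astrocytes stood between Astrocytes and the other 2 groups, which overlapped. Gabrg1 was 2.38 times higher in MIM-Astrocytes than in Astrocytes (1.09, SE 0.08, adjusted p = 7.43e-07), and Glioblastoma and NSC were not called different (0.05, adjusted p = 0.578). Gabra2 (chr5:70957597-71095849), an alpha subunit, was raised in Glioblastoma, at 6.89 ± 0.439 FPKM against 1.93 ± 0.138 in Astrocytes, 1.99 ± 0.162 in MIM-Astrocytes and 1.53 ± 0.0667 in NSC. The mean in Glioblastoma was 3.57 times that in Astrocytes (1.43, SE 0.06, adjusted p = 6.77e-09) and 4.50 times that in NSC (1.64, adjusted p = 5.29e-09). Astrocytes and MIM-Astrocytes overlapped and were not called different (0.03, adjusted p = 0.730).

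**Figure D4:**
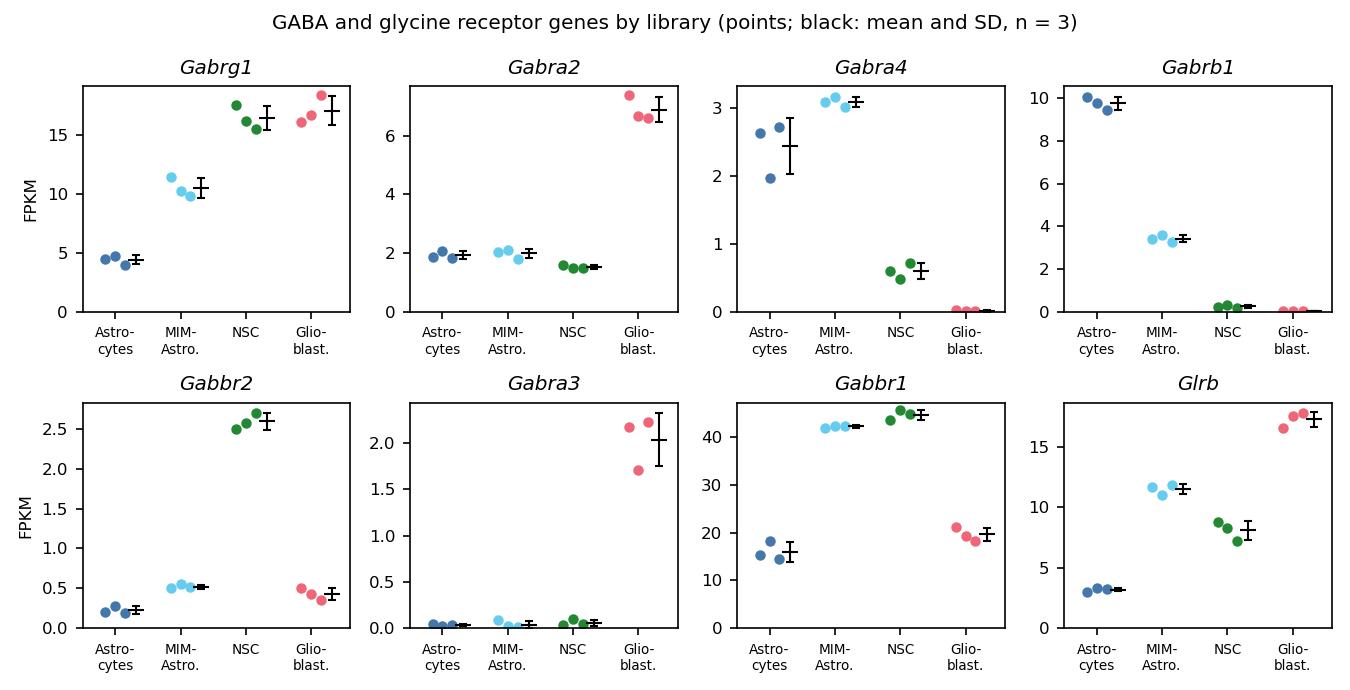
FPKM of GABA and glycine receptor genes in each library (coloured points, 3 per group), with the mean and SD of the group in black and 1 panel per gene, each with its own linear axis from 0. The 4 genes of the upper row are neighbours on chromosome 5: Gabrg1 rises from Astrocytes to NSC and Glioblastoma, Gabra2 is highest in Glioblastoma, and Gabra4 and Gabrb1 are lowest there.

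Gabrg3 (chr7:56716465-57387188, minus strand), a gamma subunit, reached 1 FPKM in too few libraries to be tested: it read 1.12, 0.976 and 1.26 FPKM in MIM-Astrocytes, was at 0.319 ± 0.0180 in NSC, with 0.174 ± 0.0506 in Glioblastoma, and did not pass 0.0149 in any Astrocytes library. Its neighbour Gabra5, an alpha subunit, did not pass 0.500 FPKM in any library.

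In the chrX:72255999-72842602 cluster, Gabra3 (chrX:72432681-72656848, minus strand), an alpha subunit of the immature brain, read 2.17, 1.71 and 2.23 FPKM in Glioblastoma. It was at 0.0351 ± 0.0100 FPKM in Astrocytes, 0.0405 ± 0.0380 in MIM-Astrocytes and 0.0594 ± 0.0313 in NSC, with intervals that reach 0 in all of those libraries. The Glioblastoma libraries lay above all others, by 1.55 against Astrocytes and 1.51 against NSC. Its neighbours Gabre and Gabrq did not pass 0.420 FPKM in any library. Gabrb2 (chr11:42419757-42629028, plus strand), a beta subunit of the adult brain, was at 1.33 ± 0.177 FPKM in Astrocytes, 0.321 ± 0.0626 in MIM-Astrocytes, 0.446 ± 0.0164 in NSC, with 0.403 ± 0.0454 in Glioblastoma. It was lower in MIM-Astrocytes than in Astrocytes by -0.82, and all Astrocytes libraries lay above the rest.

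Together the 19 GABA-A genes summed to 29.4 ± 1.24 FPKM in Astrocytes, 25.1 ± 0.618 in MIM-Astrocytes, 28.4 ± 1.27 in NSC, with 38.9 ± 1.89 in Glioblastoma. The order of Astrocytes and Glioblastoma in these sums can depend on how libraries are scaled. Behind these sums the leading gene differed. Gabrb1 held 33.2 ± 0.373% of the sum in Astrocytes. Gabrg1 held 41.9 ± 2.63% in MIM-Astrocytes, 57.9 ± 1.29% in NSC, with 44.0 ± 1.22% in Glioblastoma, against 15.1 ± 0.934% in Astrocytes.

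GABA-B receptors are pairs of Gabbr1, which binds GABA, and Gabbr2, which couples to the G protein and brings the pair to the surface. Gabbr1 (chr17:37045966-37075067, plus strand) read 15.3, 18.3 and 14.4 FPKM in Astrocytes, 41.9, 42.4 and 42.3 in MIM-Astrocytes, 43.5, 45.5 and 44.7 in NSC, with 21.1, 19.4 and 18.3 in Glioblastoma. MIM-Astrocytes and NSC formed a high pair and Astrocytes and Glioblastoma a low one. Gabbr1 was 2.64 times higher in MIM-Astrocytes than in Astrocytes (1.35, SE 0.08, adjusted p = 1.47e-07), and the difference of MIM-Astrocytes from NSC was not called (-0.08, adjusted p = 0.434). The call of Glioblastoma over Astrocytes (0.28, adjusted p = 0.00765) was lost with both other scalings, which gave -0.00157 (adjusted p = 0.988) and -0.23 (adjusted p = 0.186). Gabbr2 (chr4:46662305-46991873, minus strand) was far lower than Gabbr1, at 2.59 ± 0.102 FPKM in NSC, 0.521 ± 0.0257 in MIM-Astrocytes, 0.430 ± 0.0804 in Glioblastoma and 0.227 ± 0.0507 in Astrocytes. NSC was above Astrocytes by 1.55, and MIM-Astrocytes was called above Astrocytes by 0.31 (adjusted p = 0.00101). Glioblastoma over Astrocytes (0.22, adjusted p = 0.00571) was lost with median-of-ratios scaling (adjusted p = 0.0542) and a common total (adjusted p = 0.335). Even in NSC Gabbr2 made up 5.49 ± 0.184% of the summed level of the pair.

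Of the glycine receptor genes only Glrb and Glra4 reached a group mean of 1 FPKM. Glrb (chr3:80843599-80913660, minus strand) encodes the beta subunit, which anchors the receptor to gephyrin and forms no channel of its own. It lies 40763 bases upstream of Gria2 on the same strand, and both were lowest in Astrocytes, so the windows around their RefSeq starts are printed, 5' to 3' on the minus strand of GRCm38.p6. They are chr3:80913611-80913910 for Glrb and chr3:80802786-80803085 for Gria2, with capitals as above.
Glrb: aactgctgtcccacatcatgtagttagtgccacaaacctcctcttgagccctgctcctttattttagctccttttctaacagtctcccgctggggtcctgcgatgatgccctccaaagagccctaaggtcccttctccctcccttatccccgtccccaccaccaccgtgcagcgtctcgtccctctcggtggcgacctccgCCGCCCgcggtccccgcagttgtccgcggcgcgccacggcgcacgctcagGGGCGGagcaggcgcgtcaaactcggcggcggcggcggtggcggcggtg
Gria2: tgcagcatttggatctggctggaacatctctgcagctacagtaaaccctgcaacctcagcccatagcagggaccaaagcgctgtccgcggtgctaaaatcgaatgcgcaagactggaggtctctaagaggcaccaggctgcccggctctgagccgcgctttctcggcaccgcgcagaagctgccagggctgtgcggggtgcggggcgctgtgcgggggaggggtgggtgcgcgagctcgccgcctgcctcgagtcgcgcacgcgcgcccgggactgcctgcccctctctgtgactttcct
The Glrb window holds 2 GC boxes and the Gria2 window holds none of the 6 motifs searched. Of 43 promoter windows that the table gives for 36 of the 52 genes, 22 hold GGGCGG, 18 CCAAT, 5 TATAAA, 2 TGANTCA, 2 CAGCTG and none TGACGTCA. The shares among all promoters are 13.6% for TATAAA, 7.81% for TGANTCA, 16.3% for CAGCTG and 1.79% for TGACGTCA.

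Glrb read 3.03, 3.33 and 3.24 FPKM in Astrocytes, 11.6, 11.01 and 11.8 in MIM-Astrocytes, 8.75, 8.27 and 7.199 in NSC, with 16.6, 17.5 and 17.7 in Glioblastoma. The groups did not overlap, and Glioblastoma was highest. Glrb was 3.59 times higher in MIM-Astrocytes (1.57, SE 0.07, adjusted p = 1.09e-08), 2.52 times in NSC (1.11, adjusted p = 1.18e-07) and 5.40 times in Glioblastoma (2.12, adjusted p = 4.92e-10) than in Astrocytes. MIM-Astrocytes exceeded NSC (0.46, SE 0.07, adjusted p = 0.000191). Glra4 (chrX:136757674-136780141, minus strand), an alpha subunit, read 1.20, 1.42 and 1.48 FPKM in Astrocytes and was at 0.208 ± 0.0227 in MIM-Astrocytes, 0.118 ± 0.0316 in NSC, with 0.0666 ± 0.0243 in Glioblastoma. Astrocytes lay above the rest, by a log2 difference that put MIM-Astrocytes at -0.97. Glioblastoma against MIM-Astrocytes (-0.18, adjusted p = 0.0213) was lost with a common total (adjusted p = 0.0951) and without Glioblastoma replicate 2, MIM-Astrocytes replicate 2 or MIM-Astrocytes replicate 3 (adjusted p = 0.0623, 0.0638 and 0.0510). Glra1, Glra2 and Glra3 did not pass 0.0393 FPKM in any library, and Glrb made up 98.2 ± 0.217% of the summed glycine receptor level in MIM-Astrocytes, 98.3 ± 0.664% in NSC, 99.5 ± 0.0542% in Glioblastoma and 70.1 ± 1.62% in Astrocytes.

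Those 23 genes that stayed below a mean of 1 FPKM in every group read from 0 to 1.20 FPKM in single libraries. They include the alpha subunits Gabra5 and Gabra6, the delta, epsilon, pi and theta subunits Gabrd, Gabre, Gabrp and Gabrq (up to 0.420 FPKM), and the retina-type rho subunits Gabrr1, Gabrr2 and Gabrr3 (up to 0.896). The NMDA subunits Grin2a, Grin2d and Grin3b (0.0305 to 0.752 FPKM), the 3 glycine receptor alpha genes and the metabotropic genes named above belong to them too. Gabra6, known from cerebellar granule cells, and Glra3 are listed at 0 in all 12 libraries. At a level near 1 FPKM the interval given with a value reached 27.6% to 35.3% to either side, and near 10 FPKM 8.66% to 10.6%. The interval covers counting and assignment error within a library only, and depth is unknown since the files hold no counts.

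**Figure D5:**
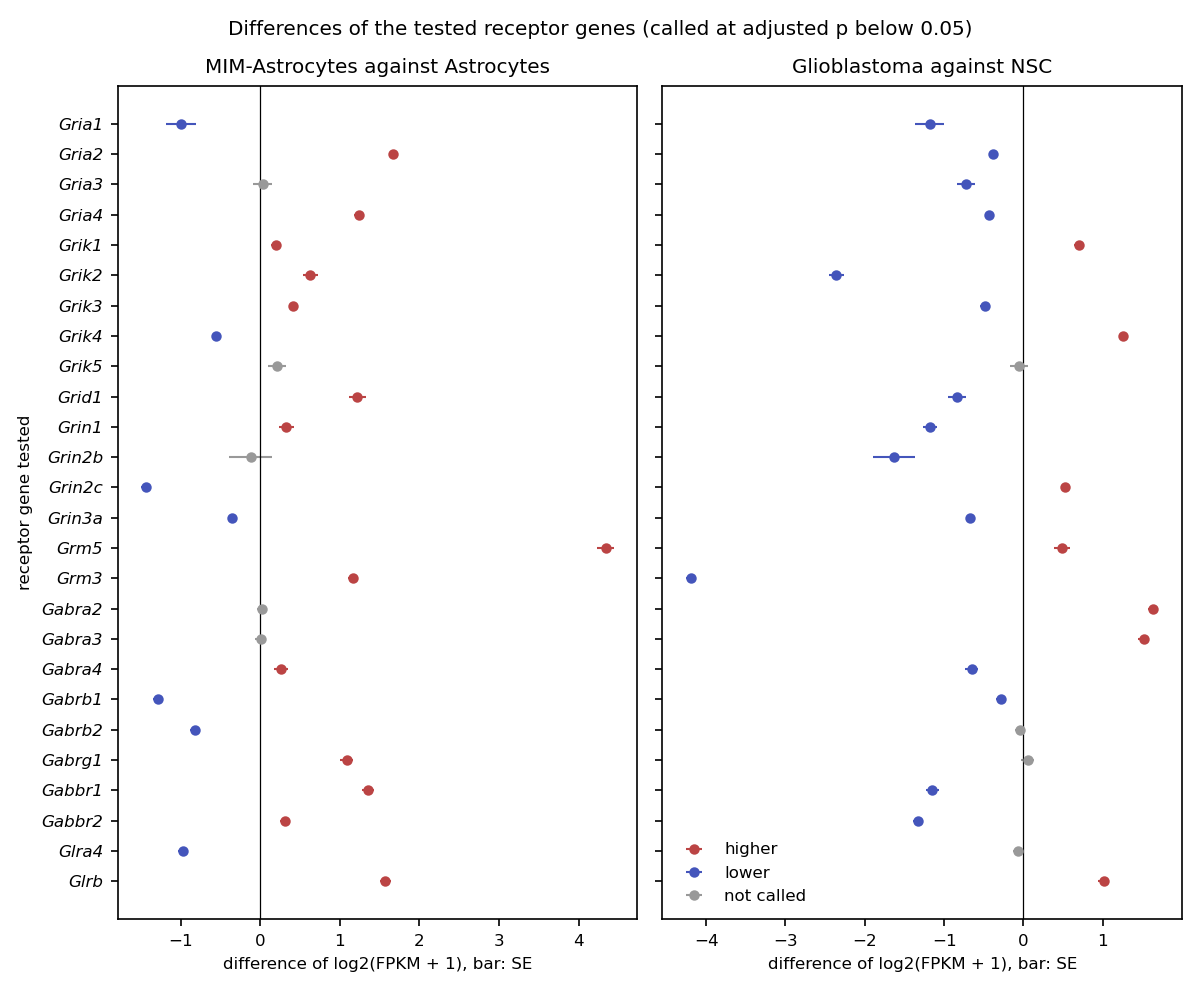
Differences of log2(FPKM + 1) of 26 tested receptor genes in MIM-Astrocytes against Astrocytes (left) and Glioblastoma against NSC (right), with the SE as a bar and called genes in red (higher) or blue (lower). On the left Grm5 lies farthest from 0 at 4.34, and on the right Grm3 does at -4.19.

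Read by comparison, MIM-Astrocytes differed from Astrocytes by at least 1 log2 unit in 8 called genes upward (Grm5, Gria2, Glrb, Gabbr1, Gria4, Grid1, Grm3 and Gabrg1), against 9.1% of all genes tested, and in 2 downward (Grin2c and Gabrb1), against 8.43%. The same count in NSC against Astrocytes was 12 upward and 5 downward, against 12.8% and 13.1%, and in Glioblastoma against Astrocytes 10 and 7, against 21.8% and 14.5%. Between MIM-Astrocytes and NSC, 3 genes were at least 1 unit higher in MIM-Astrocytes (Gria1, Gabrb1 and Gabra4) and 4 lower, against 6.25% and 3.64%. The 4 lower include Gabbr2 and Grin1, which entered the test through NSC only and had to be lower against it. All counts by comparison given here can include genes that entered through 1 group only, and they are a description. In Glioblastoma against NSC 5 were higher and 7 lower (13.9% and 7.73% of all genes), and in Glioblastoma against MIM-Astrocytes 6 and 9 (13.3% and 8.68%). The direction of the called receptor genes in Glioblastoma against Astrocytes depended on the scaling, with 14 higher and 12 lower as deposited, 11 and 13 with median-of-ratios scaling and 10 and 14 with a common total. In NSC against Astrocytes the 14 higher and 9 lower became 13 and 12 with a common total.

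Transporters that clear the transmitters are background to what the receptors see. The companion genes below are among the 3 of each list with the widest range between groups, and the counts of each list stand beside the shares of all genes tested. Among 8 tested genes of glutamate uptake, synthesis and release, 4 were higher and 2 lower in MIM-Astrocytes than in Astrocytes (34.8% and 26.6% of all genes), and 4 were higher and 3 lower in Glioblastoma (47% and 31.3%). Glul, the glutamine synthetase of astrocytes, was at 971 ± 92.9 FPKM in MIM-Astrocytes, 286 ± 30.7 in Astrocytes, 186 ± 19.0 in NSC, with 84.2 ± 7.198 in Glioblastoma. Slc1a2, a main glutamate transporter, was at 73.9 ± 4.67, 54.3 ± 2.99, 33.5 ± 2.90 and 6.12 ± 0.901 FPKM in the same order. Glud1, the glutamate dehydrogenase, was highest in Astrocytes (338 ± 16.6 FPKM) and lowest in Glioblastoma (86.3 ± 4.33).

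Of 17 tested auxiliary proteins of AMPA and kainate receptors, 9 were higher and 4 lower in MIM-Astrocytes than in Astrocytes (34.8% and 26.6% of all genes). Cnih2, a cornichon that slows AMPA channel closing, was at 1.89 ± 0.116 FPKM in Astrocytes, 49.8 ± 6.16 in MIM-Astrocytes, 11.4 ± 1.25 in NSC, with 3.21 ± 0.271 in Glioblastoma. Cnih2 was higher in MIM-Astrocytes than in Astrocytes by a log2 difference of 4.13. That is the range for which it was named, so it is given without a test. Shisa9, which modulates AMPA channels, followed the order of Gria1, at 31.5 ± 1.78 FPKM in Astrocytes, 20.8 ± 1.43 in MIM-Astrocytes, 11.7 ± 0.445 in NSC, with 0.870 ± 0.138 in Glioblastoma. Nptx1, a secreted pentraxin that clusters AMPA receptors, was highest in Glioblastoma (23.1 ± 1.07 FPKM) and lowest in Astrocytes (0.168 ± 0.0407). Among 15 tested scaffold genes MIM-Astrocytes had 7 called higher and 5 called lower than Astrocytes (34.8% and 26.6% of all genes). Grip1, which binds the tail of Gria2, rose from 1.07 ± 0.0530 FPKM in Astrocytes to 4.63 ± 0.1499 in MIM-Astrocytes, 6.47 ± 0.278 in NSC, with 12.8 ± 0.362 in Glioblastoma, and Homer2, which binds Grm5, from 1.25 ± 0.267 to 4.16 ± 0.560, 4.15 ± 0.471 and 6.41 ± 0.0149. Dlgap3, a postsynaptic scaffold, was highest in NSC (7.50 ± 0.473 FPKM) and lowest in Glioblastoma (0.131 ± 0.0176).

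Glycine and the D form of serine are co-agonists of NMDA receptors, and glycine is among the metabolites that MIM may hold. Of 6 tested genes of their supply 4 were higher and 1 lower in MIM-Astrocytes than in Astrocytes (34.8% and 26.6% of all genes). Slc6a9, the glial glycine transporter, was at 76.6 ± 9.14 FPKM in MIM-Astrocytes against 10.7 ± 1.07 in Astrocytes, and Shmt2, the mitochondrial enzyme that links serine and glycine, at 40.6 ± 3.96 against 12.4 ± 1.04. Shmt2 was at 198.5 ± 3.51 FPKM in Glioblastoma and Shmt1, its cytosolic relative, at 25.2 ± 1.49, each the highest of the 4 groups. Of 6 tested genes of GABA and glycine synthesis, uptake and breakdown, 2 were higher and 3 lower in MIM-Astrocytes than in Astrocytes (34.8% and 26.6% of all genes). Slc6a11, a glial GABA transporter, stood at 0.582 ± 0.0954 FPKM in Astrocytes, 60.4 ± 3.38 in MIM-Astrocytes, 72.7 ± 4.84 in NSC, with 27.5 ± 0.458 in Glioblastoma. Abat, which breaks GABA down, was at 94.0 ± 6.17 FPKM in Astrocytes, 74.0 ± 2.26 in MIM-Astrocytes, 43.7 ± 2.90 in NSC, with 11.6 ± 0.288 in Glioblastoma. Slc6a11 was lowest in Astrocytes, as Gabrg1 and Glrb were.

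Of 10 tested genes of inhibitory receptor anchoring and trafficking, 5 were higher and 3 lower in MIM-Astrocytes than in Astrocytes (34.8% and 26.6% of all genes). Kctd12, an auxiliary subunit of GABA-B receptors, was at 0.709 ± 0.183 FPKM in Astrocytes, 6.70 ± 0.661 in MIM-Astrocytes, 6.19 ± 0.459 in NSC, with 1.47 ± 0.0391 in Glioblastoma, the same high and low pairs as Gabbr1. Lhfpl4, a partner of GABA-A receptors, rose from 3.32 ± 0.422 FPKM in Astrocytes to 9.67 ± 0.421 in Glioblastoma, and Gabarapl1, a relative of the GABA-A receptor associated protein, fell from 118 ± 14.6 to 41.2 ± 1.25. Of 6 tested chloride transporters, whose balance sets whether GABA and glycine depolarise a cell, 3 were lower and 3 not called in MIM-Astrocytes against Astrocytes (34.8% of all genes higher and 26.6% lower), and 1 was higher and 5 lower in NSC (37.7% and 33.4%). Clcn2, a chloride channel of glia, was at 18.2 ± 0.865 FPKM in Astrocytes and 3.41 ± 0.493 in Glioblastoma. Slc12a4 and Slc12a7, which export chloride with potassium, were lowest in NSC, at 13.1 ± 0.502 and 0.548 ± 0.127 FPKM, against 46.2 ± 1.93 and 5.63 ± 0.942 in Astrocytes.

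Markers of cell types moved with the groups too. All 11 astrocyte markers reached a mean of 1 FPKM in Astrocytes and MIM-Astrocytes and 10 did in Glioblastoma and NSC. They summed to 2169 to 2543 FPKM in the Astrocytes libraries, 2682 to 3255 in MIM-Astrocytes, 1144 to 1318 in NSC and 671 to 707 in Glioblastoma. Glul is part of these sums and weighs on them, at 286 ± 30.7 FPKM in Astrocytes and 971 ± 92.9 in MIM-Astrocytes. Gfap, the intermediate filament of astrocytes, was at 258 ± 16.1 FPKM in Astrocytes, 7.35 ± 0.207 in MIM-Astrocytes, 3.20 ± 0.310 in Glioblastoma and 0.964 ± 0.169 in NSC. In NSC, Glioblastoma and MIM-Astrocytes all 11 markers of stem and progenitor cells reached it, as did 9 in Astrocytes. Their sums ran from 3010 to 3651 FPKM in Astrocytes, 5239 to 5668 in MIM-Astrocytes, 3701 to 4347 in NSC and 2150 to 2375 in Glioblastoma. The 11 neuronal markers found summed to 109.7 to 114.3 FPKM in the Astrocytes libraries, 173.9 to 196.6 in MIM-Astrocytes, 288 to 323 in NSC and 222 to 237 in Glioblastoma, none at 0, and Map2 made up most of each sum (102 ± 3.50 FPKM in Astrocytes to 285 ± 15.1 in NSC). Of these 11 markers, 6 reached a mean of 1 FPKM in NSC, 5 in Glioblastoma and 4 each in Astrocytes and MIM-Astrocytes. Among them, the highest group means of Snap25 and Rbfox3 were 2.29 and 0.512 FPKM. The 10 markers of oligodendrocyte progenitors, cells known for AMPA receptors, summed to 62.7 to 73.3 FPKM in Astrocytes against 452 to 519 in MIM-Astrocytes, 425 to 490 in NSC and 381 to 388 in Glioblastoma, none at 0. The 8 meningeal markers summed to 280.0 to 328 FPKM in Astrocytes and 19.4 to 22.1 in MIM-Astrocytes. In NSC the sum was 1.09 to 1.37 FPKM and in Glioblastoma 0.393 to 0.664. A mean of 1 FPKM was reached by 4 of these markers in Astrocytes, 2 in MIM-Astrocytes and none in NSC or Glioblastoma. Lum and Slc22a6 were at 0 in Astrocytes, and Col1a2, Dcn, Lum and Slc22a6 in MIM-Astrocytes. Dcn, Lum and Slc22a6 were at 0 in NSC, and Slc22a6 in Glioblastoma. The 10 microglial markers did not exceed 1.29 FPKM as a sum in any library, with Trem2 at 0 in all, and the 10 endothelial and mural markers did not exceed 2.73, with Cdh5 at 0 in all. The part of these cell types in the receptor differences was not tested.

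Across the 12 libraries the summed FPKM ranged from 514728 to 979106 and the genes at 1 FPKM or more from 14461 to 14919. No pair of libraries held identical values. Nothing in the labels states that libraries within a group are from different cultures, so p-values reflect no more than how far these libraries differ, and that may be technical.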

How the data were processed

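RNA-seq was measured in 12 libraries. The authors deposited 1 table of FPKM per library, with a lower and an upper bound for each value, made with Cufflinks on GRCm38 per the submitters' processing notes; the aligner, strandedness and filters are not given in the sources used here. The files hold no counts, so depth is unknown and no count test was run. FPKM of 45 identifiers on more than 1 line were summed. log2(FPKM + 1) was fitted with limma 3.58.1 (R 4.3.3; trend on) over all 12 libraries with 1 mean per group and 8 residual degrees of freedom, for 16982 genes with at least 1 FPKM in at least 3 libraries and status OK in all 12. Adjusted p-values are Benjamini-Hochberg values from limma over those genes in each of the 6 comparisons. Python 3.11.15 with pandas 2.3.3, NumPy 2.4.6 and matplotlib 3.10.9 was used for the other steps, and the fit was tested on simulated data.

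The receptor genes, gene lists and marker lists were chosen with earlier results of these data known. Receptor genes with a group mean of at least 1 FPKM were named, and of each companion list up to 3 tested genes with the widest range of group means on the log2 scale. The fit was repeated with a replicate block, without the status rule, on the 6 libraries of a comparison alone, without each library in turn, with all genes kept, with genes of mean 5 FPKM or more, with 0.1 or 0.5 in place of 1 as pseudocount, and after scaling libraries by median of ratios or to a common total of the tested genes. Promoter windows came from RefSeq (GRCm38.p6), which gave them for 36 of the 52 genes. Values of some of the receptor and companion genes are not reported here, and counts and sums over all genes of a list include them.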

Additional observations from a re-analysis of the deposited data

How the results depend on the processing

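Of 180 alternative values for the counts of called genes, 168 stayed within 1.5 times the main count. With a mean of at least 5 FPKM, which left fewer genes to test, receptor genes called were 12 in MIM-Astrocytes against Astrocytes, 12 in NSC against Astrocytes, 13 in Glioblastoma against Astrocytes, 11 in MIM-Astrocytes against NSC, 12 in Glioblastoma against NSC and 14 in Glioblastoma against MIM-Astrocytes. All genes called were then 6807, 7745 and 8446 in the 3 comparisons with Astrocytes in that order, 7681 in Glioblastoma against NSC and 7665 in Glioblastoma against MIM-Astrocytes. With no filter 37 receptor genes were called in Glioblastoma against NSC. Leaving out 1 library at a time gave 22 to 23, 22 to 23, 25 to 27, 19 to 21, 24 and 24 to 25 receptor genes in the 6 comparisons. Deviations of libraries with the same replicate number were at most weakly correlated (r from -0.058 to 0.097 over 18 pairs, against -0.12 to 0.074 over 36 pairs of different numbers). Still, 8 of 12 libraries correlated best with their own number, so a weak sharing by number is not excluded. With a replicate block 23, 22, 26, 21, 24 and 25 receptor genes were called, and Grik5 in NSC against Astrocytes was lost (adjusted p = 0.0642).

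Signs reversed as follows, and the cause was not tested. In MIM-Astrocytes against Astrocytes, median-of-ratios scaling gave -0.0478 for Gabra2 and -0.0750 for Gria3, and a common total gave -0.18 for Gabra2, -0.26 for Gria3 and -0.0707 for Grik5. Leaving out 1 library there gave -0.00265 to 0.0724 for Gabra2 (lowest without MIM-Astrocytes replicate 2), -0.0233 to 0.0227 for Gabra3 (lowest without MIM-Astrocytes replicate 1, and -5.9e-05 without Astrocytes replicate 2) and -0.319 to 0.0950 for Grin2b (highest without Astrocytes replicate 1). In NSC against Astrocytes Grik4 was -0.22 with a common total, which was a call (adjusted p = 0.0376). In Glioblastoma against Astrocytes Gabbr1 was -0.00157 and Gria4 -0.23 with median-of-ratios scaling, and Gabbr1 was -0.23 and Gria4 -0.45 with a common total. In MIM-Astrocytes against NSC Gabbr1 was 0.0424 with a common total. In Glioblastoma against NSC Gabrg1 was -0.18 with median-of-ratios scaling, -0.0493 with a common total and -0.00197 to 0.0975 with 1 library left out, and Grik5 was then -0.162 to 0.0409. Both signs turned without Glioblastoma replicate 3. Median-of-ratios scaling moved the median of all genes by -0.24 in Glioblastoma against Astrocytes, -0.19 against NSC and -0.14 against MIM-Astrocytes, and a common total by -0.24, -0.33 and -0.43 in the 3 comparisons with Astrocytes and -0.18 in Glioblastoma against MIM-Astrocytes.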
